A study of Mus musculus with 2 samples.

Results

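The 10 genes Lyve1, Folr2, Cbr2, F13a1, Mrc1, Clec10a, Mgl2, Retnla, Pf4 and Timd4, which mark tissue-resident macrophages, were read in single cells of regenerating mouse muscle. They are 10 of the 19169 genes listed, and they were chosen by name. Their levels and their co-detection were read in cells with at least 2 of the 3 genes C1qa, C1qb and C1qc above 0, which code for the chains of complement C1q and are made in quantity by macrophages. These cells are called C1q-gated below. The gate held 920 of 6354 cells in the library labelled WT and 1127 of 7078 cells in the library labelled KO.

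The study asked how muscle regenerates without GSDME, a gasdermin whose cleaved form opens pores in the plasma membrane during pyroptosis. Male mice, either WT or with Gsdme knocked out in the whole body, received cardiotoxin (a toxin of snake venom that kills muscle fibers). The gastrocnemius was taken on day 14. The study names C57BL/6J for its WT mice and does not state the background of the KO mice. The age of the mice is not given in the sources used here. Both groups were injured and no uninjured muscle was compared here, so a value below contrasts the genotypes within injury. The study used 5 mice per genotype, its text does not say whether their cells were pooled, and there was 1 library per genotype. With 1 library per genotype no test between genotypes was run. Intervals are exact 95% intervals and cover counting error only, not the spread between mice.

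Resident macrophages settle in a tissue and can renew there, whereas other macrophages arise after injury from blood monocytes that enter through CCR2. In muscle the resident cells sit in the connective tissue and along vessels, where they take up debris, iron, hyaluronan and dying cells. Their identity genes include uptake receptors (Lyve1, Timd4, Folr2, Mrc1), lectins that bind galactose-type sugars (Clec10a, Mgl2), secreted proteins (Pf4, Retnla) and a transglutaminase subunit (F13a1), and an enzyme (Cbr2).

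As a check of the labels, Gsdme itself was at 5.03 CPM (UMIs of the gene per 1000000 UMIs, interval 4.39 to 5.73) in the library labelled WT and at 4.65 CPM (4.08 to 5.29) in the library labelled KO. With 225 WT and 237 KO UMIs, the log2 ratio of KO over WT was −0.11 (−0.38 to 0.16). The RNA thus did not mark the KO library, and every direction below rests on the labels. A deletion that leaves RNA in place would not be seen in this count, and whether that holds here was not tested.

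The gate was checked against markers and clusters. The 7 macrophage markers, which include the 3 C1q genes of the gate, summed to 33600 CPM in WT and 30442 CPM in KO gated cells. The 6 monocyte markers summed to 9781 and 10798 CPM. The median gated cell held 45 C1q UMIs in the WT library and 41 in the KO library. Of the gated cells, 87.3% in the WT library and 86.8% in the KO library lay in the 2 clusters that resembled macrophages. One of them, with Folr2, F13a1, Cbr2, Pf4 and Ccl24 as its leading genes, held 482 WT and 608 KO gated cells and is called the Folr2-led cluster. The other was led by Ms4a7, Ccl3, Ccl4 and Trem2, held 321 WT and 370 KO gated cells, and is called the Ms4a7-led cluster. A further 29 WT and 42 KO gated cells lay in an unnamed cluster led by Lyz1 and Retnla, and 23 WT and 30 KO cells lay in a small cluster rich in doublet calls. The remaining 142 gated cells were scattered over other clusters. Median depth was 5564 UMIs per gated cell in the WT library and 5676 in the KO library. Only 4 barcodes occurred in both libraries.

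RNA of other cells was also read in the gate. The 6 markers of fibro-adipogenic progenitors (FAPs), the mesenchymal cells of muscle, summed to 4259 CPM in the WT library and 6178 CPM in the KO library. The 6 markers of mature muscle summed to 334 and 757 CPM, and the 5 erythrocyte markers to 284 and 687 CPM. The tenocyte list ran from 265 to 485 CPM, and the endothelial list was lower in the KO library, at 1009.9 CPM in WT and 921 CPM in KO. The part of other cells in the results below was not tested.

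Timd4 had the largest difference between the libraries, Retnla the most uneven spread over WT gated cells, and Folr2 the closest co-detection with other members. The promoters of these 3 members are shown for that reason. Each is the sequence before a RefSeq start (GRCm38.p6), 5′ to 3′, cut where an annotated exon begins. Capitals mark matches, on either strand, to TTCNNNNGAA (the STAT6 type), CACCC (KLF factors), TGCTGA (the core of a MAF element), AGGAAG (the PU.1 type) and TGANTCA (AP-1).

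Timd4, chr11:46810549-46810798, plus strand: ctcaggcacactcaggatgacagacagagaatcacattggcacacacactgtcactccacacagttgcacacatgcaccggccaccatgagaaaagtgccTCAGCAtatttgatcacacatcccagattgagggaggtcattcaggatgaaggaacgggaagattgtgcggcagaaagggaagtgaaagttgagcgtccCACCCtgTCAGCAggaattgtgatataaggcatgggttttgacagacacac
Retnla, chr16:48842359-48842550, plus strand: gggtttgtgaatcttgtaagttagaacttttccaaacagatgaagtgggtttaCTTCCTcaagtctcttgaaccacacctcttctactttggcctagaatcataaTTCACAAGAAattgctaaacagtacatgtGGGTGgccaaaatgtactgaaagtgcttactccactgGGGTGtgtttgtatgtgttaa
Folr2, chr7:101845332-101845581, minus strand: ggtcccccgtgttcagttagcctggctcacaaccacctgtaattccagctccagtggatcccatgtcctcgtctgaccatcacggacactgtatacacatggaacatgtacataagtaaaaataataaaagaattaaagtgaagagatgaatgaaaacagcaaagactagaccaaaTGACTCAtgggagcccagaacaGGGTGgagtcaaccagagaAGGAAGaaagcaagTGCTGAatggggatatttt

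Letters of the STAT6 type stood only before Retnla, among the 10 starts of the 8 members with a RefSeq promoter entry. They lay 145 to 136 bases upstream of its RefSeq start. That start is not the annotated gene start at 48842551, since the full window before it ran to 48842608. Over the same 250 bases, 5.85% of all 32851 promoters held them. STAT6 relays the signal of the IL-4 receptor, and Retnla is a textbook gene of IL-4-treated macrophages. The Timd4 window held TGCTGA at 2 places, which 16.1% of promoters had at least once, and CACCC, which 52.0% had. The Folr2 window, upstream of the inner of its 2 starts, held AP-1, KLF, PU.1 and MAF letters. PU.1 letters occurred before 7 of the 8 members against 29.5% of all promoters, KLF letters before 5 of the 8, and AP-1 letters before Folr2 alone against 6.75%. Such matches describe the letters and do not show that a factor is bound.

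In GRCm38, Timd4 lies on chromosome 11 from 46810800 to 46844332, Lyve1 on chromosome 7 from 110850607 to 110863239, and Retnla on chromosome 16 from 48842551 to 48844461. Mgl2 (chromosome 11, 70130329 to 70137550) and Clec10a (70156197 to 70170834) are neighbors of like sequence, 18647 bases apart, and 111 stretches of 90 bases were identical between their annotated transcripts, 3.25% of those of Clec10a and 4.86% of those of Mgl2. Reads from such stretches cannot be assigned, so small differences between this pair are uncertain. Cbr2 shared 6.12% of its stretches with Gm11771, and the other 7 members shared none.

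Among the uptake receptors, Timd4 and Lyve1 were lower in the KO library and the others were close to even. Timd4 codes for TIM4, which binds phosphatidylserine on dying cells. It was at 46.5 CPM (41.0 to 52.5; 258 UMIs) in WT gated cells and at 14.6 CPM (11.9 to 17.7; 103 UMIs) in KO gated cells, so the intervals did not overlap. The log2 ratio of KO over WT was −1.67 (−2.01 to −1.33), a level 3.18-fold lower. Lyve1, a receptor for hyaluronan, was at 129 CPM (120 to 139) in the WT library and 67.1 CPM (61.1 to 73.4) in the KO library, 1.93-fold lower, with a log2 ratio of −0.94 (−1.12 to −0.78). The 6 markers of lymphatic endothelium, which also makes Lyve1, summed to 96.3 CPM in WT and 67.9 CPM in KO gated cells, and within the Folr2-led cluster alone the Lyve1 ratio was −0.96 (−1.14 to −0.78). Folr2, a folate receptor, was at 476 CPM in the WT library and 403 CPM in the KO library, a log2 ratio of −0.24 (−0.32 to −0.16). Mrc1, the mannose receptor CD206, was at 925 CPM and 1011 CPM (log2 ratio 0.13, 0.08 to 0.18).

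The lectins, secreted proteins and the enzyme differed little in the gate as a whole. Clec10a was at 257 CPM in WT and 222 CPM in KO cells, a log2 ratio of −0.21 (−0.32 to −0.11), and Mgl2 at 311 and 320 CPM (log2 ratio 0.04, −0.05 to 0.14). Pf4, a chemokine best known from platelets, was at 2536 CPM in the WT library and 2459 CPM in the KO library, with a log2 ratio of −0.04 (−0.08 to −0.01). The sign of this small ratio turned in macrophage-like clusters only (0.05), without Scrublet calls (0.00173) and as a mean over cells (0.00796). The 6 platelet and megakaryocyte markers summed to only 7.74 and 5.95 CPM in these cells, and 1 of them was at 0. F13a1, the A subunit of coagulation factor XIII, was at 651 and 635 CPM, and Cbr2, a carbonyl reductase, at 218 and 209 CPM, with intervals of both ratios that included 0.

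Retnla (RELMα, a secreted protein of alternatively activated macrophages) was at 1833 CPM in the WT library and 1951 CPM in the KO library, a log2 ratio of 0.09 (0.05 to 0.13). This near-even level hid an uneven spread, since the tenth of gated cells with the most Retnla held 95.4% of its UMIs in the WT library and 98.7% in the KO library. For Mrc1 the corresponding shares were 32.8% and 32.1%, for Lyve1 76.0% and 83.9%, and for Timd4 79.5% and 100%. Timd4 was read in only 59 KO gated cells, so its KO share is fixed by that count. One KO cell held 1388 UMIs of Retnla. Without the cluster led by Lyz1 and Retnla, which was left out only once the data had been seen, the log2 ratio was −0.57, and within the macrophage-like clusters it was −0.48.

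Of the 10 members, 2 (Lyve1 and Timd4) were past 1.5-fold lower in the KO library and 0 were past it higher. All 10 had at least 20 UMIs over both libraries, and among the 11656 genes with at least 20 UMIs in the gate, 8.26% were past 1.5-fold lower and 7.76% past it higher. The median log2 ratio of the members was −0.05, against −0.03 over those 11656 genes. Summed over the 10 members, the level was 7381 CPM in WT and 7291 CPM in KO cells, a log2 ratio of −0.02 (−0.04 to 0.00).

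**Figure D1:**
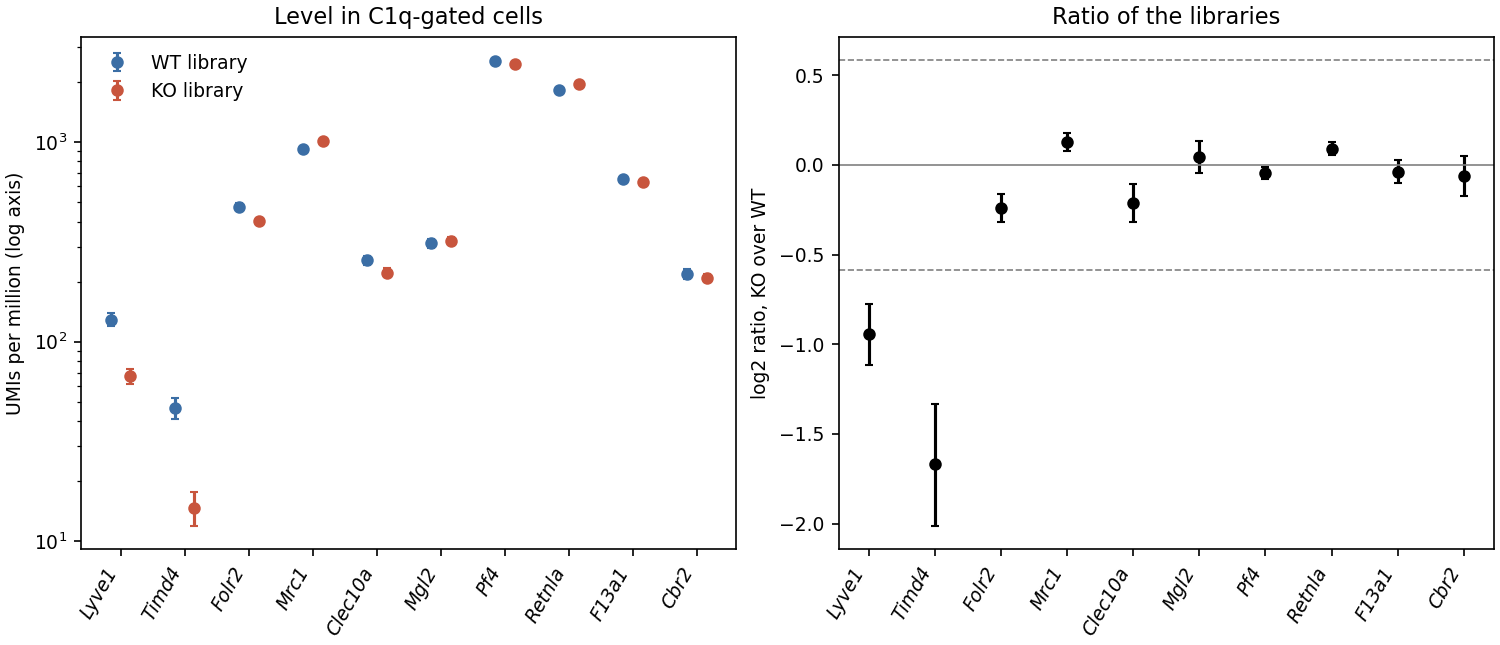
Left, level of each member in C1q-gated cells of the WT (blue) and KO (red) library, in CPM on a log axis, and, right, the log2 ratio of KO over WT, with dashed lines at 1.5-fold. Bars are exact 95% counting intervals, and only Timd4 (−1.67) and Lyve1 (−0.94) lie below the lower dashed line.

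The share of gated cells with a UMI was compared after thinning each cell to 1000 UMIs, which left out 70 WT and 73 KO gated cells with fewer. Timd4 was then found in 4.71% of 850 WT cells and 2.09% of 1054 KO cells, a difference of −2.62 percentage points (−4.44 to −0.93). At full depth the shares were 15.8% (145 cells) and 5.24% (59 cells). Lyve1 was found in 10.8% of thinned WT cells and 6.83% of KO cells, a difference of −3.99 points (−6.70 to −1.36), and in 21.8% and 16.8% at full depth. Retnla was found in fewer KO cells, 12.4% against 16.1% after thinning, a difference of −3.69 points (−6.97 to −0.46), although its level was not lower. At full depth the shares were 22.7% and 19.2%, and the interval of the difference included 0. The intervals of the other 7 differences included 0, and their shares ran from 19.9% (Clec10a, KO) to 73.5% (Pf4, KO).

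These shares were set beside those in cells that should lack the members. In 4025 WT and 4506 KO ungated cells resembling FAPs, endothelium, tenocytes, muscle stem cells (MuSCs), or pericytes and smooth muscle, the thinned share with a UMI ran over the members from 0 (Timd4) to 1.28% (Pf4) in the WT library and from 0.0228% (Timd4) to 1.48% (Pf4) in the KO library. Their median depths were 6873 and 7230 UMIs, above those of the gated cells. All 10 members therefore stood above this level in the gate in both libraries. In these other cells Folr2 gave 7.20 UMIs per 100 UMIs of C1q in the WT library, against 5.09 in the gate, and Mrc1 18.2 against 9.90. For Lyve1 the excess was larger, at 11.02 in the other cells against 1.38 in the gate in the WT library. In the KO library the Lyve1 values were 13.25 and 0.782. Cells with more C1q had been taken out by the gate, which raises the value in the other cells. How much of the excess of each member this accounts for was not tested.

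Gated cells held a graded number of members. After thinning, the median cell held 2 of the 10 in the WT library and 3 in the KO library, with means of 3.0 and 2.91. No member was read in 12.1% of WT and 10.2% of KO cells. At least 3 were read in 49.8% of WT cells (46.4 to 53.2%) and 53.5% of KO cells (50.4 to 56.6%), a difference of 3.75 points whose interval (−0.84 to 8.32) included 0. At least 5 were read in 26.4% of WT and 22.0% of KO cells, a difference of −4.34 points (−8.30 to −0.40). At full depth the sign of that last difference turned, to 4.14 points (−0.27 to 8.55), with an interval that included 0. All 10 were read together in 3.8% of WT cells and 0.71% of KO cells at full depth, and in no thinned cell.

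**Figure D2:**
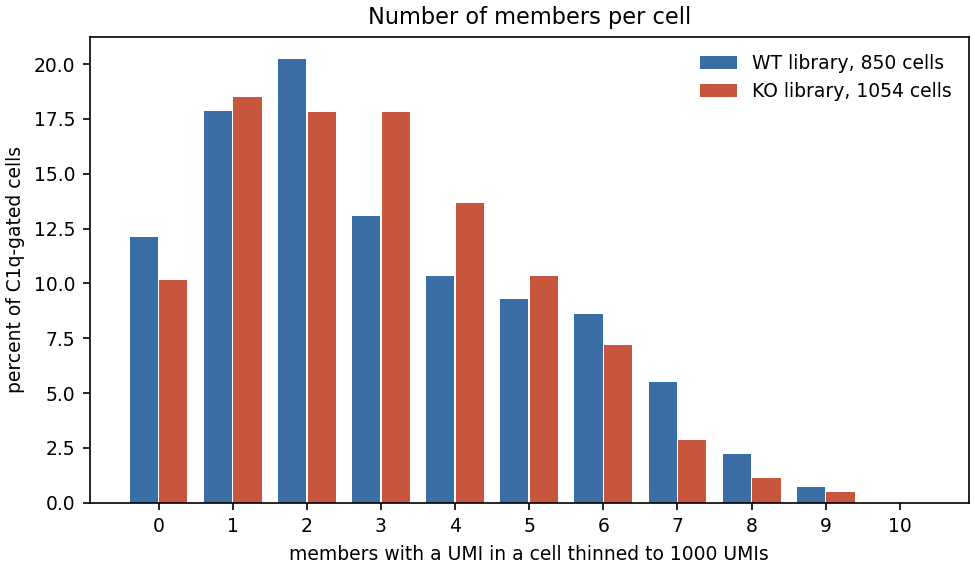
Percent of C1q-gated cells (vertical axis) by the number of members with a UMI (horizontal axis), in cells thinned to 1000 UMIs, for 850 WT (blue) and 1054 KO (red) cells. Most cells hold from 1 to 4 members, and the bars from 6 members upward are shorter in the KO library.

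Members were found together more often than independence within a library would give, in 44 of 45 pairs in the WT library and 42 of 45 in the KO library. The phi coefficient, the correlation of presence over cells thinned to 1 depth, had a median of 0.21 in the WT library and 0.15 in the KO library. Cells of 1 library share its depth and free RNA, so these values are descriptions. The gate also pools macrophage-like clusters that differ in their number of members, which can by itself raise co-detection. Pairs within a cluster and pairs of other genes were not compared. Folr2 and F13a1 had the highest phi in both libraries, 0.43 and 0.34. Folr2 was accompanied by F13a1 in 74.1% of WT cells, against 28.3% of WT cells without Folr2, and the KO shares were 67.5% and 31.2%. Folr2 with Cbr2 followed in the WT library with 0.37, and stood at 0.24 in the KO library. In cells thinned to 2000 UMIs that pair was the highest, at 0.50 and 0.44.

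Most Lyve1-positive cells also held Pf4, Mrc1, F13a1 and Folr2. Of the WT cells with a Lyve1 UMI, 91.3% also had Pf4, 85.9% Mrc1, 81.5% F13a1 and 68.5% Folr2. In WT cells without Lyve1 these shares were 68.9%, 53.2%, 37.7% and 26.4%. The corresponding KO shares were 91.7%, 83.3%, 77.8% and 70.8% with Lyve1, and 72.2%, 56.7%, 39.3% and 26.5% without it. Timd4 was found in 17.4% of WT cells with Lyve1, against 3.17% of those without, and in 13.9% against 1.22% in the KO library. The count behind the last pair was small, at 16 WT and 10 KO cells with both genes.

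Phi cannot come near 1 where one gene of a pair is much rarer than the other, which holds down the pairs of Timd4. As observed over expected cells, Lyve1 with Timd4 was the highest pair, at 3.70 in the WT and 6.65 in the KO library. This ratio can reach higher values for rarer genes, and Timd4 and Lyve1 were the rarest members in both libraries. The KO value rested on 10 cells with both genes. In cells thinned to 2000 UMIs the pair was at 3.004 in the WT and 3.045 in the KO library, so the higher KO value was not kept. The 9 pairs of Retnla had a median phi of 0.17 in the WT library and 0.08 in the KO library, and pairs without it 0.22 and 0.20. With Pf4 it was the lowest pair in both libraries, at −0.02 and −0.08. All 3 pairs below independence in the KO library held Retnla, with Pf4, Cbr2 and Mrc1. In cells thinned to 2000 UMIs only the pair with Pf4 stayed below it. There Retnla with Cbr2 was at 1.26 and with Mrc1 at 1.05 as observed over expected KO cells. Retnla was found in 28.5% of WT cells with Folr2 and 10.6% of those without, and in 17.7% and 10.2% in the KO library.

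**Figure D3:**
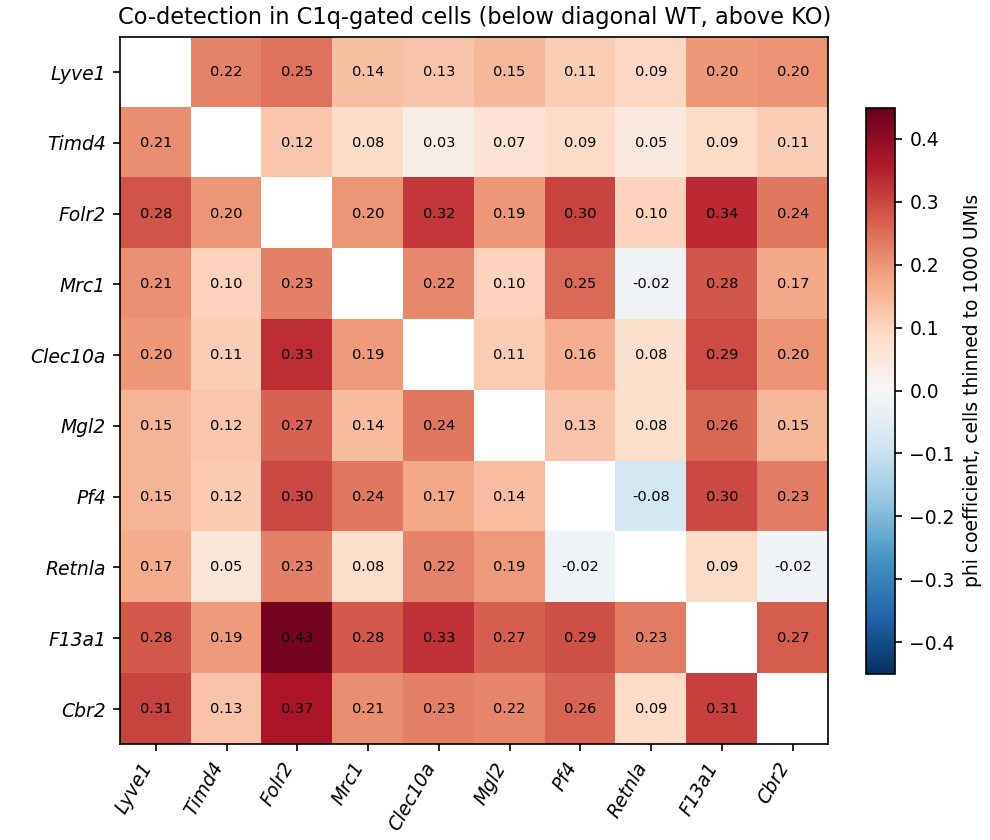
Phi coefficient of each pair of members over C1q-gated cells thinned to 1000 UMIs, with WT below and KO above the diagonal; with genes as rows and columns and red for positive values. Folr2 with F13a1 is the darkest square on each side (0.43 and 0.34), and Retnla with Pf4 is below 0 in both libraries.

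The members divided the macrophage-like clusters, which were drawn with these genes among others, so the split itself is no result. After thinning, the mean number of members per gated cell was 4.49 in WT and 4.11 in KO cells of the Folr2-led cluster, and 1.60 and 1.79 in the Ms4a7-led cluster. The shares of gated cells in the Folr2-led cluster were close, 52.4% in the WT and 53.9% in the KO library.

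Within the Folr2-led cluster, Timd4 was at 94.9 CPM in the WT and 30.1 CPM in the KO library, a log2 ratio of −1.66 (−2.05 to −1.27). Lyve1 was at 322 and 166 CPM, and Retnla at 2522 and 1402 CPM (log2 ratio −0.85, −0.91 to −0.79). Folr2 (1068 and 841 CPM, ratio −0.35), Clec10a (573 and 471 CPM, ratio −0.29) and F13a1 (1398 and 1274 CPM, ratio −0.13) were also lower in the KO library, while the intervals of Cbr2, Mrc1 and Mgl2 included 0. As shares of thinned cells with a UMI, the differences for Clec10a (−2.92 points, −9.12 to 3.26) and F13a1 (−5.29 points, −11.4 to 0.94) had intervals that included 0.

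Within the Ms4a7-led cluster the summed levels of most members went the other way. As shares of thinned cells with a UMI, only Mgl2 had a difference whose interval left out 0, 5.75 points (0.59 to 10.8). The differences for Folr2 (3.48 points, −1.27 to 8.15), F13a1 (5.96 points, −0.14 to 11.95) and all other members had intervals that included 0. Folr2 was at 102 CPM in the WT and 164 CPM in the KO library, a log2 ratio of 0.69 (0.46 to 0.92), and F13a1 at 183 and 274 CPM, 0.59 (0.41 to 0.76). Mrc1 (596 and 824 CPM, ratio 0.47), Mgl2 (123 and 167 CPM, ratio 0.43), Cbr2 (53.9 and 71.8 CPM, ratio 0.41), Clec10a (55.6 and 74.0 CPM, ratio 0.41) and Pf4 (1865 and 2180 CPM, ratio 0.23) were higher in the KO library as well. Retnla was at 135 and 414 CPM (log2 ratio 1.62, 1.44 to 1.80), but only 2.8% and 3.78% of thinned cells held it, and the ratio was 1.37 without the cell with most Retnla in each library and 0.70 when the clusters were drawn without integration. Timd4 was the exception. It had 42 UMIs in 321 WT cells and 1 UMI in 370 KO cells, a log2 ratio of −5.61 with a wide interval (−10.95 to −3.05). Lyve1 had 5 and 3 UMIs there, too few to compare.

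**Figure D4:**
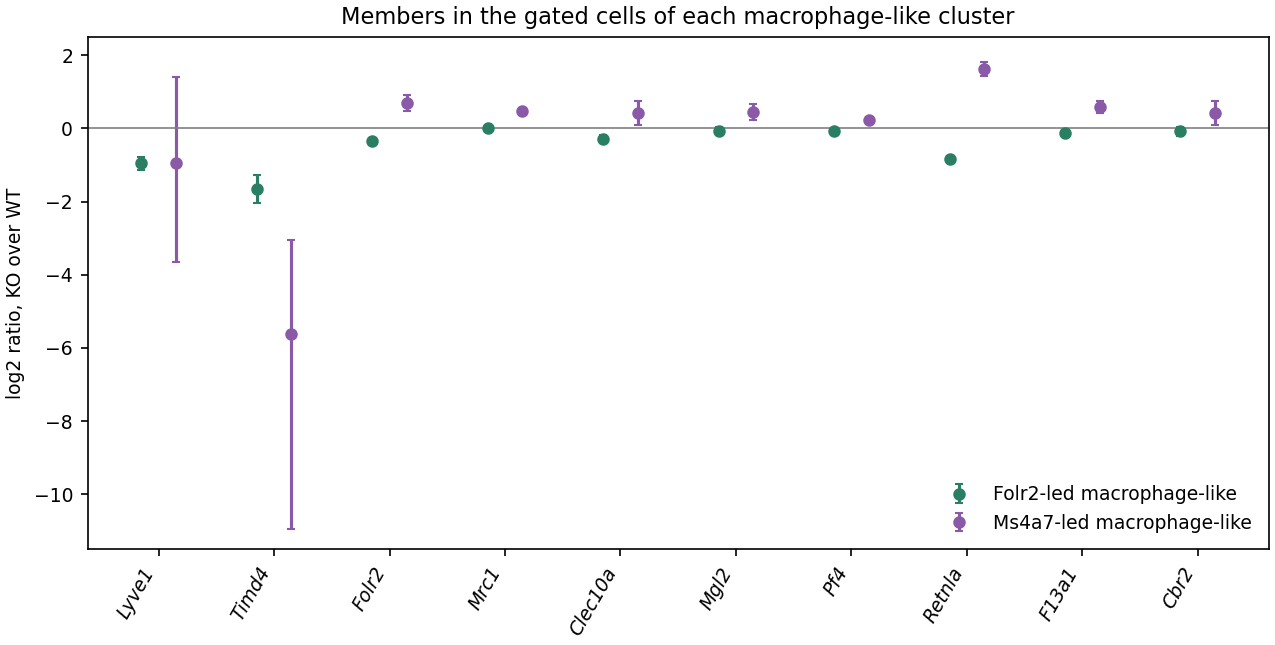
Log2 ratio of KO over WT (vertical axis) of each member in gated cells of the Folr2-led (green) and Ms4a7-led (purple) macrophage-like clusters, with exact 95% counting intervals as bars. Timd4 lies below 0 in both clusters, and Folr2, F13a1, Clec10a, Retnla and Pf4 lie on opposite sides of 0.

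Outside the gate the members fell into 3 patterns. Folr2, Cbr2 and Pf4 were nearly confined to it, with 97.3%, 96.9% and 96.7% of all their UMIs in C1q-gated cells. F13a1 (92.0%), Mrc1 (91.8%), Clec10a (84.1%) and Mgl2 (75.0%) were mostly in the gate but had a second source. Retnla (56.5%), Timd4 (45.4%) and Lyve1 (30.8%) had about as many UMIs or more elsewhere.

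Lyve1 was at its highest in cells resembling lymphatic endothelium, which line lymph vessels and carry LYVE1 on their surface. It was at 1623 CPM (1527 to 1724) in 83 WT cells and 2141 CPM (2030.0 to 2257) in 80 KO cells, a log2 ratio of 0.40 (0.28 to 0.52), opposite in sign to the ratio in the gate. These cells held 91.7% of the Lyve1 UMIs outside the gate. In those of them with 0 UMIs of C1q the ratio was 0.42. Mrc1, which lymphatic endothelium is also known to carry, was at 86.6 and 75.5 CPM there, with an interval of the ratio that included 0.

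Timd4 outside the gate came mainly from cells resembling dendritic cells, antigen-presenting cells that held 90.8% of those UMIs. It was at 286 CPM (253 to 323) in 115 WT cells and 108 CPM (89.7 to 129) in 128 KO cells, a log2 ratio of −1.41 (−1.73 to −1.09). Timd4 was read in 45.2% of the WT and 24.2% of the KO cells. In the cells of this type with 0 UMIs of C1q, which the gate cannot hold, the ratio was −1.58 (−1.96 to −1.21). So Timd4 was lower in the KO library in gated and in ungated cells alike, although both come from the same pair of libraries. In gated cells the 6 dendritic markers summed to 58.7 CPM (WT) and 82.8 CPM (KO). The part of dendritic RNA in the Timd4 of the gate was not tested.

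The same dendritic-like cells carried the lectins. Mgl2 was at 377 CPM in the WT and 446 CPM in the KO library, a log2 ratio of 0.24 (0.05 to 0.44), and Clec10a at 128 and 213 CPM, 0.73 (0.41 to 1.06). Mrc1 was at 108 and 147 CPM. Folr2, Lyve1 and Cbr2 had 0 UMIs in all 243 of these cells, so this type held the lectins, Timd4 and Mrc1 but none of these 3 members at this depth.

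Retnla was most abundant in the unnamed cluster led by Lyz1 and Retnla, of which 28.3% of 251 cells passed the gate. It was at 11421 CPM in 110 WT cells and 13445 CPM in 141 KO cells, a log2 ratio of 0.24 (0.20 to 0.27). In its cells with 0 UMIs of C1q the values were 9596 and 8701 CPM, a ratio of −0.14, whereas in its gated cells they were 11512 and 20118 CPM, a ratio of 0.81. The sign thus depended on which cells of the cluster were read. F13a1 (235 and 278 CPM), Mrc1 (240.3 and 363 CPM) and Mgl2 (197 and 193 CPM) were read there too, and Cbr2, Folr2 and Lyve1 had at most 8 UMIs in either library. F13a1 was also read in cells resembling neutrophils, 251 CPM (41 UMIs) in 26 WT cells and 91.4 CPM (14 UMIs) in 33 KO cells. The monocyte markers Plac8 and Ly6c2 were also among the 10 leading genes of that cluster, so it may be mixed.

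**Figure D5:**
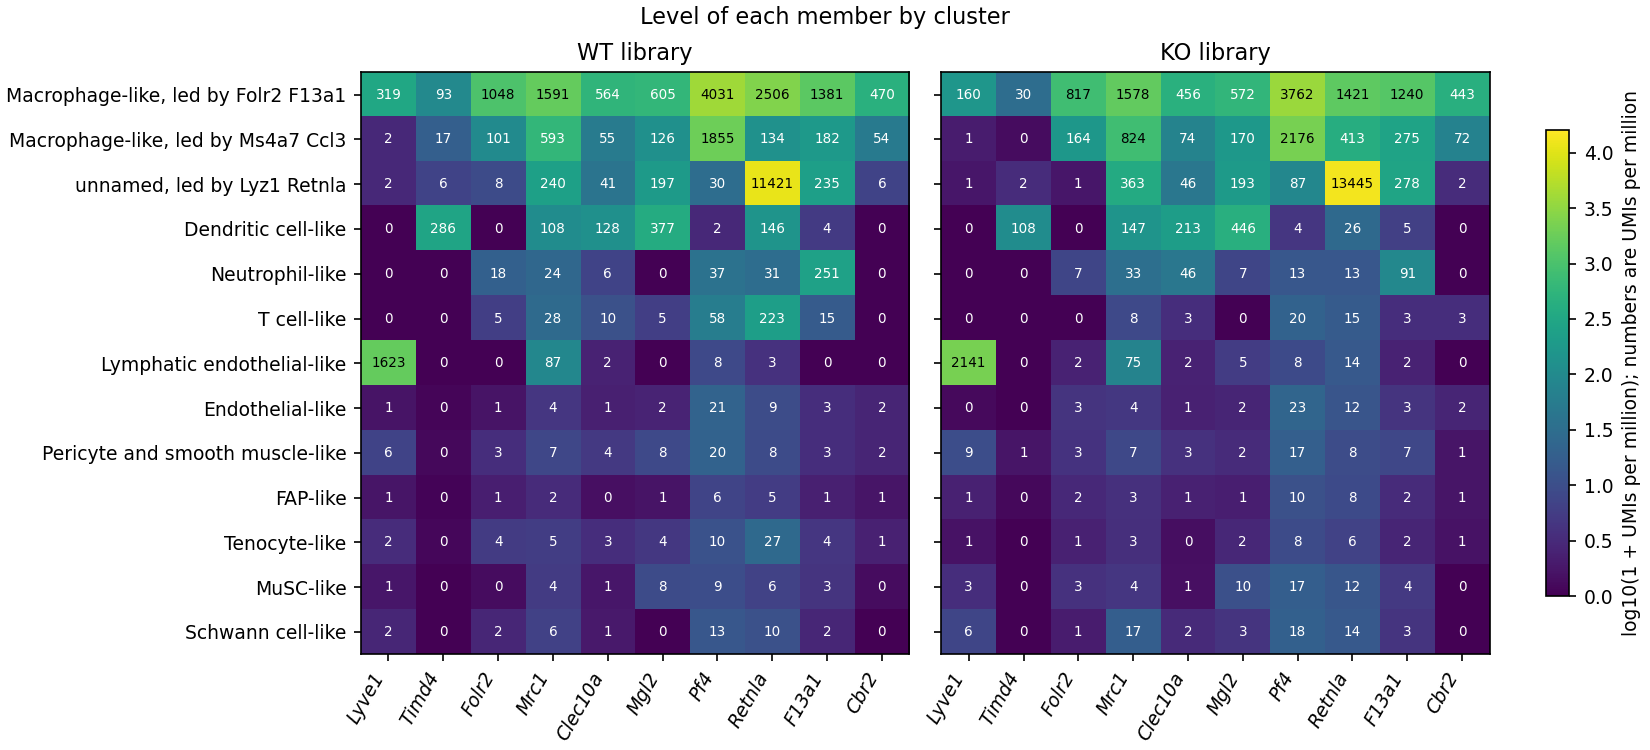
Level of each member (columns) by cluster (rows) in the WT (left) and KO (right) library, colored by log10 of 1 plus CPM, with the CPM printed in each square, over all cells of each cluster and for 13 of the clusters. Folr2 and Cbr2 are highest in the Folr2-led macrophage-like row, Lyve1 in the lymphatic endothelial-like row (1623 and 2141), Timd4 in the dendritic cell-like row (286 and 108) and Retnla in the unnamed row led by Lyz1 and Retnla.

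Genes outside the list sorted the gated cells along the members. Cells with a UMI of Cd163, the hemoglobin scavenger receptor, held a mean of 4.88 members in the WT and 4.70 in the KO library, against 2.75 in cells without it in both. Folr2 was found in 63.3% of Cd163-positive and 26.7% of Cd163-negative WT cells, and in 55.4% and 27.3% of KO cells. For Klf4, a transcription factor, the means were 3.58 with and 2.12 without in the WT library and 3.38 and 2.64 in the KO library. Cells with Ccr2, the monocyte receptor, held 2.74 against 3.02 in the WT library and 2.91 in both kinds of KO cells. Those with Trem2, a lipid receptor of recruited macrophages, held 2.29 against 3.19 in the WT and 2.76 against 2.95 in the KO library. For H2-Aa, an MHC class II chain, the means were 2.71 with and 3.86 without in the WT library, and Timd4 was found in 3.15% and 9.26% of these cells. The corresponding KO values were 2.84 and 3.31 members, and 1.22% and 7.05% for Timd4.

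Among the 10 genes whose levels ran most closely with the number of members, of 1328 genes found in at least 10% of thinned WT gated cells, were Selenop (r = 0.52 over 850 WT cells and 0.50 over 1054 KO cells), Gas6 (0.43 and 0.34), Ccl24 (0.42 and 0.30), Pltp (0.40 and 0.29), Maf (0.39 and 0.34), C4b (0.38 and 0.29), Ier2 (0.38 and 0.07), Ednrb (0.37 and 0.31) and Fcgrt (0.34 and 0.25). Selenop codes for a plasma selenium carrier, Gas6 for a ligand that bridges dying cells to MERTK, and Maf for a macrophage transcription factor. Ier2, an immediate-early gene, had by far the lower value in the KO library. Of the 10 genes ranked first in each library, 6 were the same.

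Further genes of these macrophages were read in the gate from lists set by name. Of 22 further resident macrophage genes, 5 were past 1.5-fold lower in the KO library (Cd163, Cd209f, Cd209g, Cd209b and Klf4) and 2 past it higher (Igf1 and Dab2), beside 8.26% and 7.76% of all 11656 genes tested. As means over cells of UMIs per 10000, a scaling tried for the lists after seeing the data, Cd163 (−0.55), Cd209g (−0.36) and Dab2 (0.57) fell inside the fold, and Txnip (−0.64) and Cd209d (−0.85) passed it. Klf4 was at 1488 CPM in the WT and 706 CPM in the KO library, a log2 ratio of −1.08 (−1.13 to −1.02). Cd163 was at 157 and 103 CPM (log2 ratio −0.60, −0.74 to −0.45). The lectin genes Cd209f and Cd209g had ratios of −0.87 and −0.98 from summed UMIs, and of −0.59 and −0.36 as means over cells. Their relative Cd209d had a ratio of −0.18 (−0.55 to 0.19). Txnip, a regulator of redox and glucose uptake, had a ratio of −0.47, and Fcna, a ficolin, of −0.57, both inside the fold. The growth factor Igf1 was at 197 CPM in the WT and 332 CPM in the KO library, a ratio of 0.75 (0.65 to 0.86), and the endocytic adaptor Dab2 had a ratio of 0.59.

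Of the 14 recruited and other macrophage genes with at least 20 UMIs, 1 was past the fold higher and 0 lower, beside the same 7.76% and 8.26% of all genes. It was Il1b, an inflammatory cytokine, at 251 CPM in the WT and 1109 CPM in the KO library, a log2 ratio of 2.14 (2.06 to 2.22). Ccr2 had a ratio of 0.38 (0.25 to 0.52) and Trem2 of 0.10 (0.01 to 0.18). Of the 8 genes of the IL-4 receptor pathway and alternative activation with enough UMIs, 0 were past the fold higher and 1 lower, Ccl22, beside again 7.76% and 8.26% of all genes. Ccl22 had 37 and 27 UMIs and a ratio of −0.80, and of 0.05 as a mean over cells. Il4ra, the IL-4 receptor chain, was at 142 and 181 CPM, a ratio of 0.35 (0.22 to 0.48). The medians of the 3 lists were −0.17, 0.14 and 0.14.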

How the data were processed

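Single-cell RNA was measured in 1 library per genotype with a 10x Chromium 5′ kit. The authors deposited 1 table of 19169 genes by 13432 cells, each value the natural log of 1 plus the UMIs per 10000 UMIs of the cell, after removing doublets and cells rich in mitochondrial RNA. The submitters' processing notes name Cell Ranger 2.1.1 and build mm10, and the study's methods name another Cell Ranger version. Undoing the log gave whole UMIs within 0.256, a step tested on simulated data. The libraries hold 44758518 (WT) and 50930009 (KO) UMIs, and the end of each barcode names its library. A count of 0 allows up to 3 UMIs of the total.

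Cells were clustered again (2000 variable genes, 30 principal components, Harmony rewritten in numpy, 20 neighbors, Louvain resolution 0.8, igraph 0.11.9) and named from fixed markers. Rules that left mixed clusters unnamed were set after clusters were seen. Scrublet (scanpy 1.11.5) marked 1.59% and 1.54% of cells, left out only as an alternative. Levels are CPM of summed UMIs with exact Poisson intervals. Ratios carry the exact binomial interval of the share of UMIs, and differences of shares an interval built from the pair of exact binomial ones. Each UMI is one molecule whatever the gene's length, and capture can still differ between genes. All 10 members were named, list genes were named if past 1.5-fold with at least 100 UMIs or fixed by name, and 10 genes by likeness, of which 1 is not reported here. Cd209b, Cd209d and Ccl22 were named after their values were seen. The members and lists were chosen with earlier results of these data known. The alternatives changed scaling, gate, depth, doublets, fold, minimum UMIs and clustering.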

Additional observations from a re-analysis of the deposited data

Results flagged for a closer look

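Folr2, F13a1, Clec10a, Retnla and Pf4 had ratios of summed UMIs of opposite sign in the 2 macrophage-like clusters, each with an interval that left out 0. The log2 ratios of KO over WT in the Folr2-led and the Ms4a7-led cluster were −0.35 and 0.69 for Folr2, −0.13 and 0.59 for F13a1, −0.29 and 0.41 for Clec10a, −0.85 and 1.62 for Retnla, and −0.08 and 0.23 for Pf4. The clusters were drawn with these genes among others, each comparison has 1 library per genotype, and the difference between the clusters was not tested. With clusters drawn at resolution 1.2 or without integration, each of these 10 ratios kept its sign. Shares of thinned cells with a UMI were less clear. In the Folr2-led cluster the Pf4 share was 87.6% in WT and 91.3% in KO cells, a difference of 3.62 points (−0.42 to 7.80). There the intervals for F13a1 and Clec10a also included 0, and those for Folr2 and Retnla lay below it. In the Ms4a7-led cluster the intervals for all of these members included 0.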

How the results depend on the processing

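No paired analysis was possible because each genotype has 1 library. Lyve1 (−0.97 to −0.81) and Timd4 (−1.86 to −1.49) kept a log2 ratio past 1.5-fold under the 6 alternatives tried for them, 4 on which cells enter, Scrublet calls left out, and a mean over cells. At 2-fold, 1 member stayed lower in the KO library (Timd4), beside 2.43% of all genes. The median log2 ratio of the members, −0.05, was −0.14 as a mean over cells of UMIs per 10000. The summed log2 ratio, −0.02, was −0.0522 in macrophage-like clusters only, −0.0788 as a mean over cells, and −0.14 without the cluster led by Lyz1 and Retnla, an alternative added after seeing the data. The difference in the share of cells with at least 3 members, 3.75 points, was −1.03 points for at least 4 members. The cause of these shifts was not tested. Of 181 values of single members under an alternative, 163 stayed within the counting interval, 18 moved out of it and 0 called values changed sign. Ratios in the gate and in other cell types counted as called only past 1.5-fold. Shares and ratios within a cluster counted as called where the interval left out 0. In the gate, Retnla ran from 0.09 to −0.57, Pf4 turned sign under 3 alternatives, and F13a1 (0.02) and Cbr2 (0.04) in macrophage-like clusters only, all inside the fold. As means over cells, 1 further resident gene in place of 2 was past the fold higher, and 0 genes of the IL-4 list in place of 1 lower, a scaling added for the lists after seeing the data. Depth limits Timd4 most, with 361 UMIs in the gate and thinned shares of 4.71% (WT) and 2.09% (KO). At full depth, gated cells with Timd4 held a median of 1 UMI of it in both libraries. Intervals leave out the spread between mice, which 1 library per genotype cannot show.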

Other observations

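These genes were chosen after their values were seen. At the other end of the likeness ranking, the genes that ran most strongly against the number of members in WT gated cells were Lgals3 (r = −0.38, and −0.23 in the KO library), the MHC class II genes H2-Ab1 (−0.38 and −0.25), H2-Eb1 (−0.37 and −0.25) and H2-Aa (−0.37 and −0.21), Cd52 (−0.32 and −0.30) and Cd74 (−0.32 and −0.16). Lgals3 codes for galectin-3, and the MHC class II genes and Cd74 serve antigen presentation. Among thinned gated cells, H2-Aa was found in 74.6% of WT and 85.2% of KO cells, H2-Ab1 in 73.4% and 83.4%, and Cd74 in 82.0% and 90.2%. The number of members in a thinned cell also ran against the log of the cell's full depth, with r = −0.26 in the WT and −0.29 in the KO library, so deeper cells held fewer members among the same 1000 UMIs. The Ms4a7-led cluster was the deeper of the macrophage-like clusters, its cells having a median depth of 7044.5 UMIs, while those of the Folr2-led cluster had 4046.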
